A study of Mus musculus with 6 samples.

Results

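The solute carrier family 25 is a family of carrier proteins of the inner mitochondrial membrane. Its genes were read here as all rows of the deposited expression table whose symbol is Slc25a followed by a number, which gave 47 of 24421 genes. Expression was measured by RNA sequencing of macrophages sorted as live F4/80+ CD11b+ cells from visceral white adipose tissue of male C57BL/6N mice, 12 weeks old, on a high-fat diet of 60 kcal% fat. All mice had subcutaneous injections at intervals of 6 days over 30 days, of ethanol vehicle (EtOH), of the estrogen E2 at 10 mg/kg, or of the estrogen 4-OHE1 at 10 mg/kg. E2 is estradiol, and 4-OHE1 is 4-hydroxyestrone, a catechol estrogen that has an additional hydroxyl group on the A ring and a keto group where estradiol has the D-ring hydroxyl. Each group had 2 libraries, 6 in all. Whether libraries of a group came from different animals is not given, so p-values speak to the spread among libraries alone, and that spread may be technical.

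Carriers of this family move metabolites across a membrane that is otherwise closed to them. The adenine nucleotide carriers exchange ATP made in the matrix for cytosolic ADP, and the phosphate carrier brings in the phosphate that ATP synthesis uses. The aspartate/glutamate and oxoglutarate/malate carriers form the malate-aspartate shuttle, which brings the reducing power of cytosolic NADH into mitochondria, and the citrate carrier exports citrate for lipid synthesis. Others bring in acylcarnitines, iron, glutathione, S-adenosylmethionine or cofactors. In macrophages, citrate export and the malate-aspartate shuttle are known parts of the metabolic switch during inflammatory activation. The numbered symbols do not all name inner membrane carriers: Slc25a17 encodes a peroxisomal carrier and Slc25a46 a protein of the outer mitochondrial membrane.

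The promoters of 4 of the 5 members called in any comparison are shown, since these are the members whose levels moved past the threshold. Slc25a26, the fifth, is named only. Each sequence is a window of 300 bases around the gene's start, most of it upstream, 5′ to 3′ on the gene's strand, from RefSeq with build GRCm38.p6. Capitals mark a motif found on either strand: CACGTG, the E-box, in Slc25a13, and CCGGAAG, the core of ETS factor sites, in Slc25a3.
Slc25a13 (chr6:6217124-6217423, minus strand): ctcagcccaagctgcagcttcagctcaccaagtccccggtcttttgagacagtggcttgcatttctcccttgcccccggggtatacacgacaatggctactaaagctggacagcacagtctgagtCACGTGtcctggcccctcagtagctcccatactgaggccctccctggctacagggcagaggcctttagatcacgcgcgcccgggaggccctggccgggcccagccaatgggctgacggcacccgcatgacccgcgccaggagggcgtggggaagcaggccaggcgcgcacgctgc
Slc25a3 (chr10:91123918-91124217, minus strand): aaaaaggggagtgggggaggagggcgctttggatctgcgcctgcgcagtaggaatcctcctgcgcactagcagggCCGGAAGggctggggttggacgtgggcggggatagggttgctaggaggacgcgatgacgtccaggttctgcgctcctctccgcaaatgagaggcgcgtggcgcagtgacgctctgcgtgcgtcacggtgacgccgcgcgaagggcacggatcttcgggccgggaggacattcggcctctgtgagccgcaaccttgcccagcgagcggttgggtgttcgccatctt
Slc25a5 (chrX:36795347-36795646, plus strand): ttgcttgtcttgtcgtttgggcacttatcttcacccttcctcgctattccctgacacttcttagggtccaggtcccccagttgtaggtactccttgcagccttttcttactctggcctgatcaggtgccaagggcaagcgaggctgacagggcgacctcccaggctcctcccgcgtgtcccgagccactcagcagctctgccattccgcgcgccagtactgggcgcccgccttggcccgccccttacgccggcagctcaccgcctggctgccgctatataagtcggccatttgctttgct
Slc25a24 (chr3:109122899-109123198, plus strand): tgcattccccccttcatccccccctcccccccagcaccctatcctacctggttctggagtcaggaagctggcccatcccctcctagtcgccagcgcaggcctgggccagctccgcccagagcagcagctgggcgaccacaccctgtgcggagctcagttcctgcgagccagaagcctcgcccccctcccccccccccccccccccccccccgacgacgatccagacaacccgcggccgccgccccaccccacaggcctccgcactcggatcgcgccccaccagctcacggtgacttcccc
In Slc25a13 the E-box starts at base 126 of the 300 bases, and in Slc25a3 the ETS core starts at base 76. None of the 6 motifs searched lay in these windows of Slc25a5 and Slc25a24.

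Promoters were at hand for 36 of the 47 members, 46 promoters in all. The E-box lay in 8 of these 46 promoters, of 7 genes, which is 17.4%, against 7.15% of all 32851 promoters of the same length. ETS cores lay in 7 of the 46 (15.2%), against 8.86% of all. The cAMP response element TGACGTCA lay in 2 (4.35%), against 1.79% of all. The estrogen response element (GGTCA, 3 bases of any kind, TGACC), the glucocorticoid response element (AGAACA, 3 bases of any kind, TGTTCT) and the NRF1 site (GCGCA followed by TGCGC) lay in 0 of the 46, against 0.07%, 0.00913% and 0.971% of all. No motif searched contains another. The median GC content was 59.3% in the members' promoters and 52.7% in all. A match of letters is a description and not a site of binding.

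Levels are the authors' RPKM, which divide the reads of a gene by its exon length and by all tags of its library. The 6 libraries held 4515276 to 35293924 reads in exons, and the EtOH libraries were the deepest. The share of tags in exons differed between groups, with 84.8% ± 0.366 (SD, n = 2) for EtOH, 74.1% ± 2.41 for E2 and 61.7% ± 1.19 for 4-OHE1, so that the same RPKM stands for a different part of the exon reads. Each change was therefore tested under the authors' scaling and relative to exon reads, with limma on log2(RPKM + 1), and is called where the adjusted p is under 0.05 in both with the same direction. Printed log2 changes are relative to exon reads, with standard error (SE) and 95% interval (CI), and the adjusted p printed is the larger one of the pair. Adding 1 RPKM makes changes of low genes smaller than the ratio of their RPKM.

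All 9 macrophage markers read, Adgre1 (the gene of F4/80) and Itgam (the gene of CD11b) among them, were above 0 in the table. Their summed level was 11488 and 11628 RPKM in the EtOH libraries, 8860 and 8356 in E2, and 6650 and 6470 in 4-OHE1, with Adgre1 at 301 and 305, 178 and 166, and 144 and 134 RPKM. Lyz2 was the largest term of this sum (5765, 3669 and 2366 RPKM as group means) in the EtOH and E2 groups. The median log2 change of the 9 relative to exon reads was -0.04 in E2 and -0.16 in 4-OHE1. In limma 2 fell in E2 (2.17% of all genes), Adgre1 (-0.62, adjusted p = 0.00353) and Lyz2 (-0.46, adjusted p = 0.000991), and 0 rose. In 4-OHE1 4 fell (13.9% of all genes), Adgre1 (-0.66), Cd68 (-0.39), Fcgr1 (-0.45) and Lyz2 (-0.82). There 1 rose (5.74%), Mertk by 1.18 (adjusted p = 0.00220), while Csf1r (0.27), C1qa (0.09), Itgam (-0.16) and Ptprc (-0.10) did not pass. Against E2, 4 of the 9 were lower in 4-OHE1 (7.14% of all genes), Itgam (-0.40, adjusted p = 0.0213), Cd68 (-0.33), Fcgr1 (-0.57) and Lyz2 (-0.37). In that comparison 1 was higher (2.5%), Mertk by 0.68 (adjusted p = 0.0333). Markers of adipocytes, 8 of 8 above 0, summed to 431 and 443 RPKM in EtOH, 708 and 715 in E2, and 866 in both 4-OHE1 libraries. Fabp4 made up most of this sum. In limma 4 of the 8 rose in E2 (1.75% of all genes) and 6 in 4-OHE1 (5.74%), with 0 lower in either. Lep, at 2.13, 1.02 and 1.06 RPKM as group means, and Plin1, at 1.46, 1.51 and 2.53, passed in neither. Against E2, 4 of the 8 adipocyte markers were higher in 4-OHE1 (2.5% of all genes) and 0 lower. Markers of stromal cells, 6 of 6 above 0, had sums of 236 to 240 RPKM in EtOH, 167 to 171 in E2 and 126 to 128 in 4-OHE1. In limma 3 of the 6, Col1a1, Col1a2 and Col3a1, fell in both estrogens (2.17% of all genes in E2 and 13.9% in 4-OHE1). Dcn, the largest term, had log2 changes relative to exon reads of 0.32 in E2 and 0.17 in 4-OHE1 that did not pass. Pdgfra and Lum did not pass either. Markers of cycling cells summed to 41.9 to 45.9, 19.5 to 20.6 and 37.6 to 43.5 RPKM in that order of groups, and those of epididymis and testis to 1.42 to 1.63, 9.32 to 16.2 and 4.38 to 4.76 RPKM. In limma 2 of 3 cycling markers fell in E2 (2.17% of all genes), and 3 of 3 were higher in 4-OHE1 than in E2 (2.5%). Dendritic cell markers summed to 11.1 to 11.8, 20.505 to 23.4 and 18.8 to 18.9 RPKM, mostly Siglech, which rose in both estrogens (adjusted p = 0.0101 and 0.00655). Endothelial markers summed to 26.4 to 27.5, 16.7 to 18.7 and 20.003 to 23.5 RPKM, and mesothelial ones to 4.61 to 5.86, 1.55 to 1.79 and 0.634 to 2.25 RPKM. T cell, natural killer cell and mast cell markers summed to at most 2.53 RPKM in any library, and of the neutrophil markers Ly6g and Elane were at 0 in all 6. The part of these cells in the results on the carriers was not tested, and in bulk RNA fewer cells of a type and less RNA per cell cannot be told apart.

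**Figure D1:**
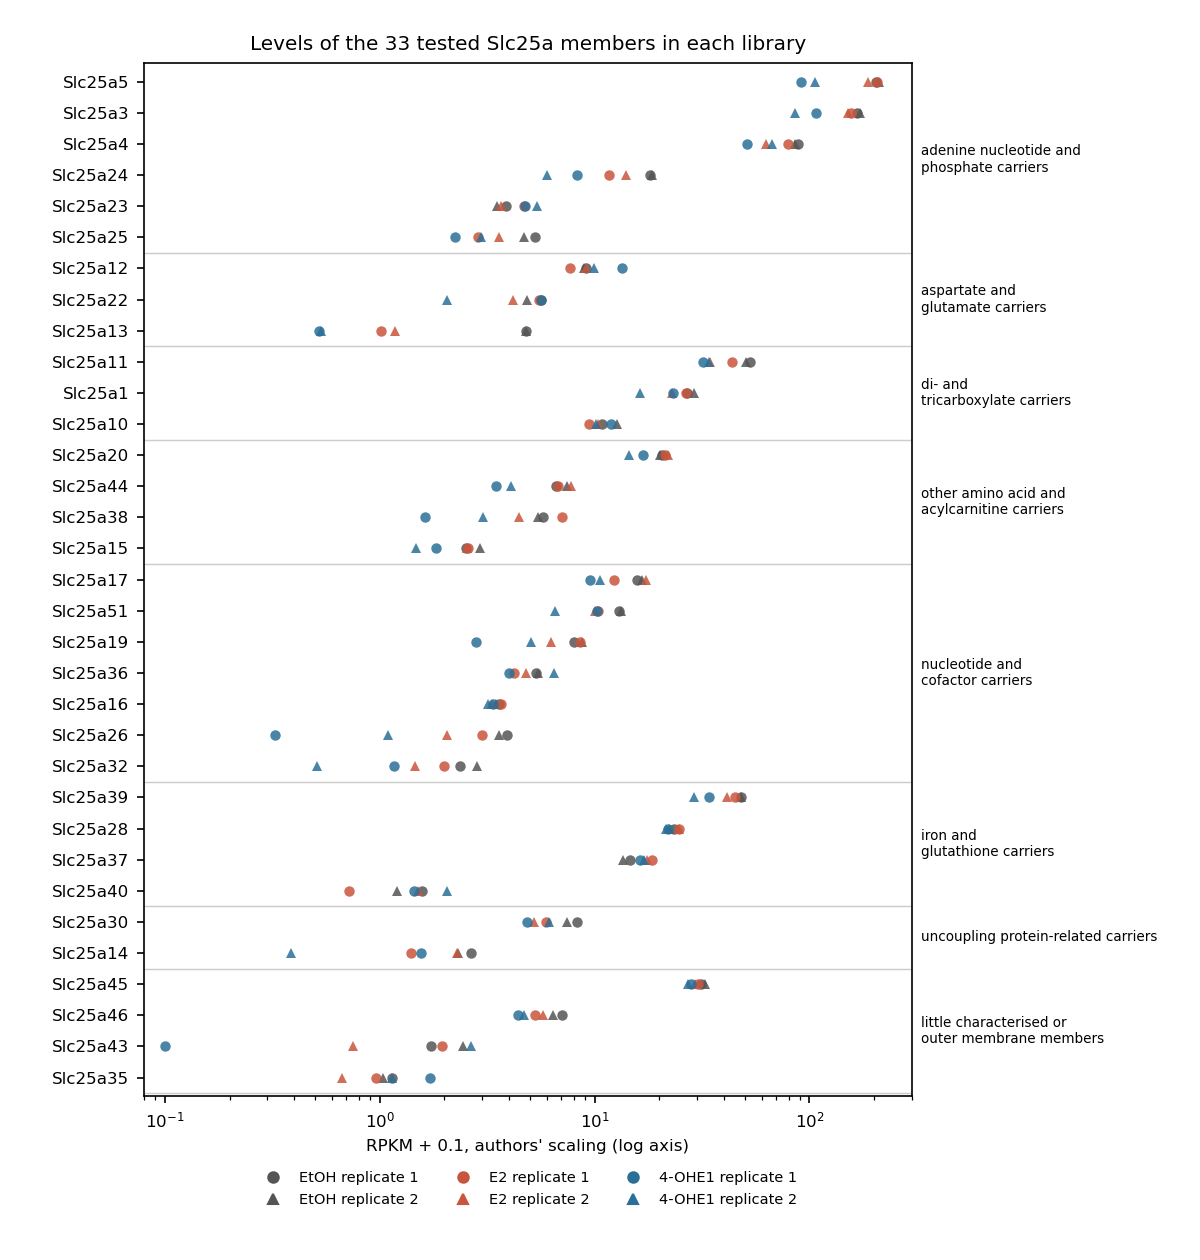
Level of each of the 33 tested members in each of the 6 libraries, as RPKM + 0.1 on a log axis, grouped by role and ordered by mean within a role. Color marks the group and shape the replicate; the row of Slc25a13 is the one where all E2 and 4-OHE1 points lie far to the left of the EtOH points.

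Of the 47 members, 33 had a mean of at least 1 RPKM over the 6 libraries and were tested, among 10950 genes. Their means ran from 1.009 RPKM (Slc25a35) to 167.6 RPKM (Slc25a5), and 14 stood at 10 RPKM or more. The level was carried by few genes. Slc25a5, Slc25a3 and Slc25a4 together made up 55.7% and 56.2% of the summed RPKM of all members in the EtOH libraries, 57.1% and 56.0% under E2, and 47.9% and 50.2% under 4-OHE1. These 3 carriers of ATP, ADP and phosphate thus took a smaller share in both 4-OHE1 libraries than in the other 4.

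The sum over all 47 members, relative to exon reads, was 826 and 832 RPKM with EtOH, 865 and 838 with E2, and 709 and 716 with 4-OHE1. E2 lay slightly above EtOH and 4-OHE1 below both. Under the authors' scaling the sums were 824 and 835, 774 and 715, and 522 and 514 RPKM, so that E2 then lay below EtOH. A sum has 2 values a group, and an exact permutation test of 2 against 2 cannot give a two-sided p below 0.333.

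The first comparison asked what E2 changed against the vehicle. Of 33 members, 1 fell and 0 rose in limma. That 3.03% called stands beside 3.93% of all genes called in this comparison (2.17% lower and 1.75% higher), so the share called was close to the background. At an unadjusted p under 0.05 in both scalings 1 member was lower and 1 higher (8.52% and 5.03% of all genes). On recovered reads of 32 members, edgeR called 1 lower and 1 higher (3.62% and 5.37% of all genes), as did DESeq2 (4.35% and 6.77%). With the authors' scaling alone 1 was lower and 0 higher (5.44% and 1.76% of all genes), and relative to exon reads alone the counts were the same (2.17% and 3.18%). Relative to exon reads both E2 libraries lay below both EtOH libraries for 8 members (24.2%, against 29.8% of all genes) and above them for 9 (27.3%, against 29.1%). The median log2 change of the members was 0.00, as was that of all genes tested. Of the 32 members that did not pass, 28 had a CI within 1 log2 unit of 0, and the median half-width of the CI was 0.45.

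The second comparison asked the same of 4-OHE1. Here 5 of 33 members fell and 0 rose in limma, 15.2% of the members beside 19.6% of all genes called (13.9% lower and 5.74% higher). The count of members that fell was thus close to what the background gives. At an unadjusted p under 0.05 in both scalings 7 members were lower and 0 higher (21.1% and 7.46% of all genes). Both edgeR (15.4% lower and 15.8% higher of all genes) and DESeq2 (14.6% and 17.1%) called 5 lower and 3 higher. With the authors' scaling alone 17 were lower and 0 higher (39.5% and 5.74% of all genes), and relative to exon reads alone 5 were lower and 4 higher (13.9% and 12.8%), so the balance of directions rested on the scaling. The members' median log2 change was -0.15, beside -0.04 for all genes. Relative to exon reads both 4-OHE1 libraries lay below both EtOH libraries for 15 members (45.5%, against 35.2% of all genes) and above them for 9 (27.3%, against 32.2%). Of the 28 members that did not pass, 18 had a CI within 1 log2 unit of 0.

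E2 and 4-OHE1 were given at the same dose and over the same time, and the third comparison set them against each other as a single pair of compounds. In 4-OHE1, 2 of 33 members were lower than in E2 and 0 higher in limma, 6.06% beside 9.64% of all genes called (7.14% lower and 2.5% higher). Again the members' share was near the background. At an unadjusted p under 0.05 in both scalings 6 members were lower and 0 higher (16.3% and 5.79% of all genes). In edgeR 3 were lower and 1 higher (8.2% and 8.15% of all genes), and in DESeq2 4 and 1 (9% and 9.69%). With the authors' scaling alone 8 were lower and 0 higher (19.7% and 2.5% of all genes), and relative to exon reads alone 2 and 0 (7.14% and 5.54%). Both 4-OHE1 libraries lay below both E2 libraries, relative to exon reads, for 12 members (36.4%, against 27.1% of all genes) and above them for 9 (27.3%, against 25.7%). The members' median log2 change was -0.08, beside -0.02 for all genes. For 18 of the 31 members that did not pass, the CI of the difference lay within 1 log2 unit of 0 on the log2(RPKM + 1) scale, and the other intervals reach further. For low genes 1 unit on this scale stands for more than a 2-fold difference of RPKM. The 3 comparisons share groups, and their values are therefore given side by side.

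**Figure D2:**
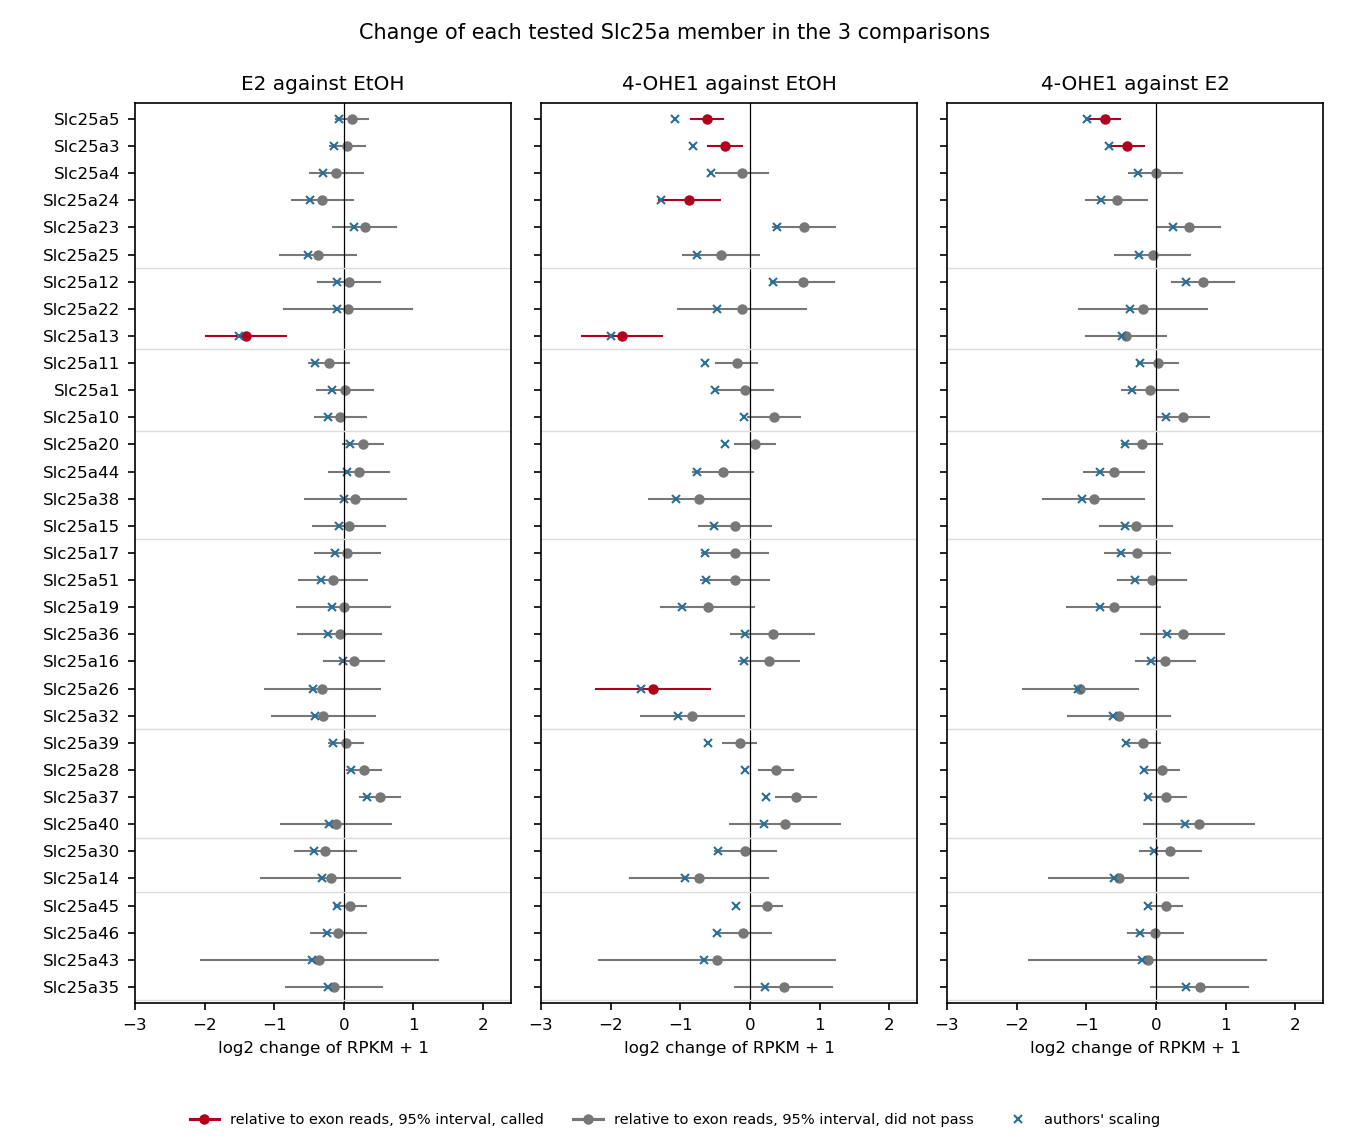
Log2 change of RPKM + 1 for each tested member in the 3 comparisons, with dots and lines for the change relative to exon reads and its 95% interval, and crosses for the authors' scaling. Red marks the called members: 1 in the left panel, 5 in the middle one and 2 in the right one.

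The aspartate and glutamate carriers held the member that moved most. Slc25a13 encodes citrin, the calcium-activated exchanger of mitochondrial aspartate for cytosolic glutamate. Its RPKM was 4.67 and 4.70 in the EtOH libraries, 0.915 and 1.08 with E2, and 0.420 and 0.435 with 4-OHE1. The 2 libraries of each group lay close together, the 3 groups did not overlap, and the order was EtOH, E2, 4-OHE1. These levels rest on 320 and 604 reads with EtOH, 20 and 26 with E2, and 12 and 10 with 4-OHE1, so that counting error alone is large in the estrogen groups. Slc25a13 fell by 1.41 on the log2 scale in E2 (SE 0.236, CI -1.98 to -0.84, adjusted p = 0.0258) and by 1.84 in 4-OHE1 (SE 0.236, CI -2.41 to -1.27, adjusted p = 0.00315). With edgeR, which adds no RPKM, the log2 changes were -2.03 and -2.99. The difference between 4-OHE1 and E2 was -0.43 (CI -1.002 to 0.14, adjusted p = 0.272) and did not pass. The call in 4-OHE1 was lost without EtOH replicate 1 (adjusted p = 0.0604) or EtOH replicate 2 (0.0617). The call in E2 was lost without either EtOH library (0.354 and 0.326) or either E2 library (0.0997 and 0.0907).

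Slc25a12 encodes aralar, the other aspartate/glutamate carrier, and was the most abundant of its role. It stood at 9.001 and 8.83 RPKM with EtOH, 7.57 and 8.98 with E2, and 13.4 and 9.79 with 4-OHE1. Both 4-OHE1 libraries were the highest, with a wide gap between them. The log2 change was 0.76 in 4-OHE1 against EtOH (CI 0.31 to 1.201) and 0.68 against E2 (CI 0.24 to 1.13), and neither passed under both scalings (adjusted p = 0.181 and 0.138). Relative to exon reads alone, limma gave an adjusted p of 0.0285 against EtOH, and edgeR gave 0.00996, with 0.0359 against E2. Without 4-OHE1 replicate 2 both comparisons passed, with adjusted p = 0.0282 and 0.0267.

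A ratio of 2 genes in the same library does not depend on its scaling. Slc25a12 divided by Slc25a13 was 1.93 and 1.88 with EtOH, 8.27 and 8.29 with E2, and 31.8 and 22.5 with 4-OHE1. This ratio was lowest in EtOH and highest in 4-OHE1 with no overlap, and its mean was 4.35 times the EtOH mean in E2 and 14.3 times in 4-OHE1. The third tested gene of this role, Slc25a22, a glutamate carrier, stood between 1.97 and 5.53 RPKM in all libraries and did not pass in any comparison.

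**Figure D3:**
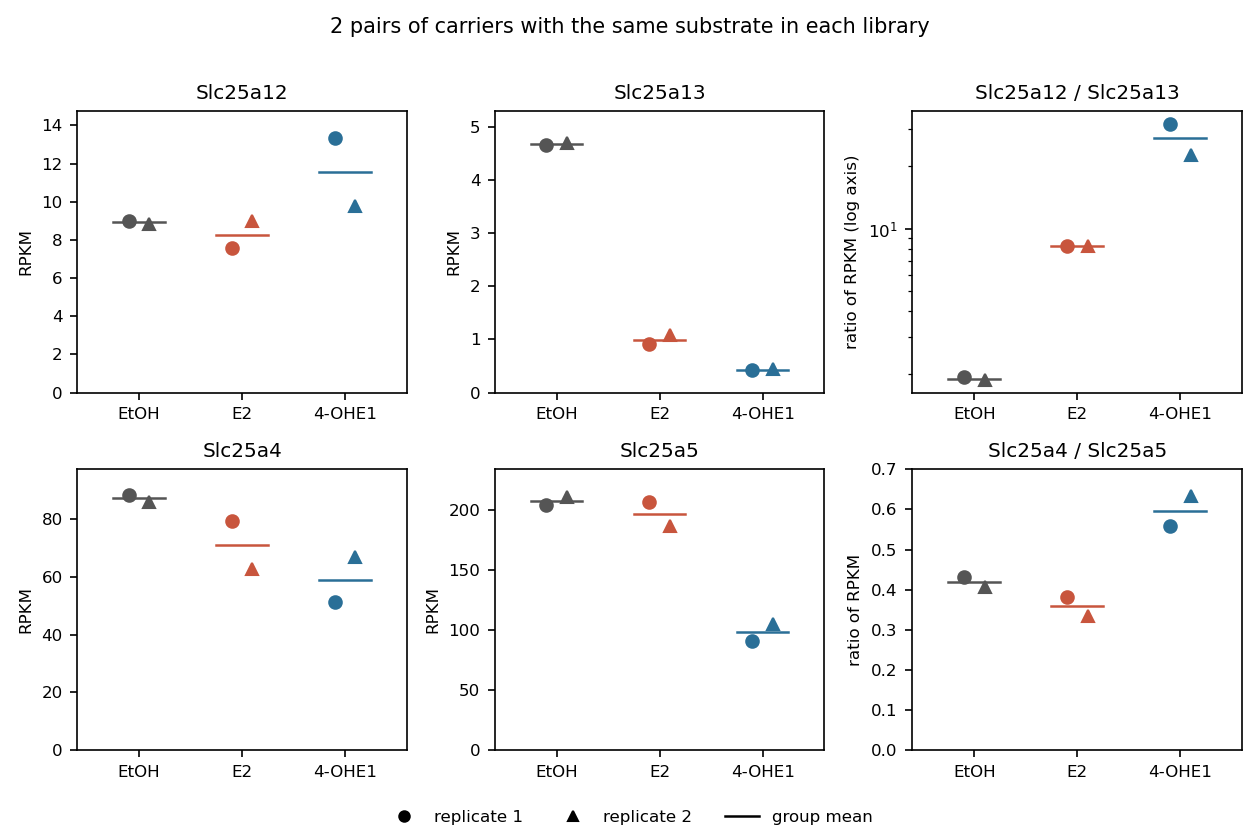
RPKM of Slc25a12 and Slc25a13 (upper row) and of Slc25a4 and Slc25a5 (lower row) in each library with their ratio at the right, as points by replicate and lines for group means. The upper ratio is on a log axis and rises from 1.88 to 1.93 in EtOH to 22.5 to 31.8 in 4-OHE1; the lower ratio is 0.407 to 0.431 in EtOH, 0.336 to 0.382 in E2 and 0.559 to 0.634 in 4-OHE1.

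Among the carriers of adenine nucleotides and phosphate, 3 of 6 tested members fell in 4-OHE1 against EtOH in limma (13.9% of all genes) and 2 of 6 were lower than in E2 (7.14% of all genes). Slc25a5 encodes the adenine nucleotide carrier ANT2 and was the most abundant member of the family. Its RPKM was 204 and 211 with EtOH, 207 and 187 with E2, and 91.4 and 105 with 4-OHE1. Under the authors' scaling both 4-OHE1 libraries lay far below the other 4, which overlapped. Relative to exon reads 4-OHE1 was again the lowest, and both E2 libraries lay above both EtOH libraries. Slc25a5 fell by 0.62 on the log2 scale against EtOH (SE 0.0924, CI -0.84 to -0.39, adjusted p = 0.00538) and was lower by a log2 change of -0.73 against E2 (SE 0.0924, CI -0.96 to -0.51, adjusted p = 0.00729). E2 and EtOH differed by 0.12 (CI -0.11 to 0.34), which did not pass, and the sign turned under the authors' scaling (-0.077). The call against EtOH was lost without EtOH replicate 1 (adjusted p = 0.05004) or 2 (0.0597), and that against E2 without E2 replicate 1 (0.0709) or 2 (0.0607).

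Slc25a3, the phosphate carrier, stood at 167 and 172 RPKM with EtOH, 156 and 151 with E2, and 108 and 85.4 with 4-OHE1. Both 4-OHE1 libraries were again the lowest. Its log2 change was -0.36 against EtOH (CI -0.61 to -0.11, adjusted p = 0.0440) and -0.41 against E2 (CI -0.66 to -0.17, adjusted p = 0.0487), both just past the threshold. Neither call held without any filter on low values (0.091 and 0.0975) or with only the 2 groups compared in the fit (0.0938 and 0.132). Each was also lost without EtOH replicate 1 (0.193 and 0.135), EtOH replicate 2 (0.24 and 0.135), E2 replicate 1 (0.0941 and 0.171) or E2 replicate 2 (0.0944 and 0.186). With a pseudocount of 0.1 the call against E2 was lost (0.0521).

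Slc25a4, the adenine nucleotide carrier ANT1, had 88.1 and 85.8 RPKM with EtOH, 79.1 and 62.6 with E2, and 51.1 and 66.8 with 4-OHE1. Relative to exon reads the groups overlapped, and the log2 changes were -0.11 in E2 and -0.11 in 4-OHE1 (CI -0.49 to 0.27 in both). With the authors' scaling alone the change in 4-OHE1 was -0.57 (adjusted p = 0.0275). The ratio of Slc25a4 to Slc25a5, which exchange the same nucleotides, was 0.431 and 0.407 with EtOH, 0.382 and 0.336 with E2, and 0.559 and 0.634 with 4-OHE1. It was highest in both 4-OHE1 libraries and did not overlap between any groups. Whether both genes changed to a different extent was not tested beyond these ratios.

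The carriers of ATP-magnesium and phosphate, which set the size of the matrix adenine nucleotide pool and are activated by calcium, are 3 of these 6 members, and 1 of them fell in 4-OHE1. Slc25a24 stood at 17.9 and 18.5 RPKM with EtOH, 11.6 and 13.9 with E2, and 8.14 and 5.87 with 4-OHE1, in 3 groups that did not overlap. It fell by 0.87 on the log2 scale in 4-OHE1 (SE 0.183, CI -1.31 to -0.43, adjusted p = 0.0170), and the call was lost without EtOH replicate 1 (0.129) or 2 (0.143). In E2 the change was -0.31 (adjusted p = 0.472), and between 4-OHE1 and E2 it was -0.56 (adjusted p = 0.0960). The latter passed with the authors' scaling alone (0.0247), in DESeq2 (0.0424) and without 4-OHE1 replicate 1 (0.0284). Slc25a23, singled out after its values were seen, stood at 3.75 and 3.42 RPKM with EtOH, 4.57 and 3.58 with E2, and 4.66 and 5.31 with 4-OHE1. Its log2 change of 0.78 in 4-OHE1 did not pass under both scalings (adjusted p = 0.134), with adjusted p = 0.0271 relative to exon reads alone and 0.0145 in edgeR. Slc25a23 divided by Slc25a24 was 0.209 and 0.185 with EtOH, 0.394 and 0.258 with E2, and 0.573 and 0.903 with 4-OHE1. Slc25a25, the third, had a log2 change of -0.42 in 4-OHE1 (adjusted p = 0.218, and 0.0246 with the authors' scaling alone), did not pass in any comparison and shares its locus with Naif1 on the opposite strand. Slc25a23 divided by Slc25a25 was 0.723 and 0.743 with EtOH, 1.66 and 1.03 with E2, and 2.18 and 1.85 with 4-OHE1.

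Of the nucleotide and cofactor carriers, 1 of 7 tested members fell in 4-OHE1 against EtOH in limma, a share close to the 13.9% of all genes. Slc25a26 encodes the carrier that brings S-adenosylmethionine, the methyl donor, into mitochondria. It had 3.79 and 3.48 RPKM with EtOH, 2.90 and 1.96 with E2, and 0.227 and 0.989 with 4-OHE1. Its 2 values in 4-OHE1 were the lowest and differed widely from each other, on 4 and 14 reads, against 160 and 275 in EtOH and 39 and 29 in E2. Slc25a26 fell by 1.39 on the log2 scale against EtOH (SE 0.340, CI -2.21 to -0.57, adjusted p = 0.0286), and the change against E2 was -1.08 (CI -1.91 to -0.26, adjusted p = 0.0878). The latter passed with the authors' scaling alone (0.0413) and without 4-OHE1 replicate 2 (0.0138). The call against EtOH was lost without any filter on low values (0.0709), with only the 2 groups in the fit (0.0588), and without EtOH replicate 1 (0.188) or 2 (0.164) or E2 replicate 1 (0.0591) or 2 (0.0587). Lrig1, on the opposite strand of the same locus, had a mean of 0.265 RPKM, and the strand setting of the counting is not given in the sources used here.

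Slc25a17, the peroxisomal carrier of cofactors and the most abundant of this role, stood at 15.6 and 16.5 RPKM with EtOH, 12.2 and 17.2 with E2, and 9.43 and 10.5 with 4-OHE1. Its log2 change in 4-OHE1 was -0.21 (CI -0.68 to 0.26, adjusted p = 0.458), and -0.64 with the authors' scaling alone (adjusted p = 0.0265). Slc25a32, which carries folate, had 0.413 to 2.73 RPKM over the libraries and a log2 change of -0.83 in 4-OHE1 that did not pass (adjusted p = 0.0949). The other members of this role had log2 changes between -0.61 and 0.33 in 4-OHE1.

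The iron and glutathione carriers were all tested, and 0 of 4 passed in limma in any comparison. Slc25a37 encodes mitoferrin-1, an importer of iron, and is singled out here after its values were seen. Its RPKM was 14.6 and 13.4 with EtOH, 18.4 and 17.4 with E2, and 16.2 and 16.9 with 4-OHE1. Both estrogen groups lay above EtOH without overlap under both scalings. The log2 change was 0.52 in E2 (CI 0.24 to 0.80, adjusted p = 0.145) and 0.66 in 4-OHE1 (CI 0.38 to 0.95, adjusted p = 0.157), and under the authors' scaling 0.33 and 0.23. In edgeR on recovered reads both passed, with adjusted p = 0.0154 and 0.00144, and relative to exon reads alone that in 4-OHE1 passed (0.00951).

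Slc25a28, mitoferrin-2, stood at 23.4 and 22.2 RPKM with EtOH, 24.5 and 24.5 with E2, and 21.8 and 21.5 with 4-OHE1. Its change in 4-OHE1 was 0.37 relative to exon reads (adjusted p = 0.0407 in that scaling alone) and -0.070 under the authors' scaling, so its direction turned. The ratio of Slc25a37 to Slc25a28 was 0.624 and 0.604 with EtOH, 0.751 and 0.710 with E2, and 0.741 and 0.787 with 4-OHE1, higher in all 4 estrogen libraries than in both EtOH libraries. Slc25a39, which imports glutathione and was the most abundant of this role, had 48.1 and 48.0 RPKM with EtOH, 44.8 and 41.1 with E2, and 34.1 and 29.0 with 4-OHE1. Relative to exon reads its change in 4-OHE1 was -0.15 (CI -0.39 to 0.09) and did not pass, while with the authors' scaling alone it was -0.60 (adjusted p = 0.00644). Slc25a39 divided by Slc25a40 was 32.5 and 43.5 with EtOH, 72.5 and 29.2 with E2, and 25.5 and 14.8 with 4-OHE1. The E2 values of this ratio lay on either side of both EtOH values. How often such ratios separate the groups over all genes was not counted. At an unadjusted p under 0.05 in both scalings 1 of the 4 members was higher in E2 (5.03% of all genes) and 0 in the other comparisons, with 0 lower in any. Both edgeR (5.37% of all genes higher in E2, 15.8% in 4-OHE1) and DESeq2 (6.77% and 17.1%) called 1 of the 4 higher in each estrogen against EtOH. Between the estrogens they called 0.

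The carriers of di- and tricarboxylates gave 0 calls among 3 tested members in limma, and 0 at an unadjusted p under 0.05 in both scalings or in edgeR or DESeq2, in each of the 3 comparisons. Slc25a11, the oxoglutarate/malate carrier, stood at 52.7 and 50.7 RPKM with EtOH, 43.6 and 34.3 with E2, and 31.8 and 33.8 with 4-OHE1. EtOH was highest under both scalings. Relative to exon reads its change was -0.22 in E2 (CI -0.51 to 0.07) and -0.19 in 4-OHE1 (CI -0.48 to 0.10), and with the authors' scaling alone the latter was -0.64 (adjusted p = 0.00875). Slc25a1, the citrate carrier, stood between 16.2 and 28.8 RPKM and had log2 changes of 0.019 and -0.065 (CI -0.38 to 0.42 and -0.46 to 0.33). Slc25a10, the dicarboxylate carrier, had 0.39 in 4-OHE1 against E2 (CI 0.02 to 0.77, adjusted p = 0.522).

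Among other amino acid and acylcarnitine carriers, 0 of 4 tested members passed in limma. At an unadjusted p under 0.05 in both scalings 1 was lower in 4-OHE1 than in EtOH (21.1% of all genes) and 2 were lower than in E2 (16.3%). Both edgeR (8.2% of all genes) and DESeq2 (9%) called 1 lower than in E2. Slc25a20, the carnitine/acylcarnitine carrier that feeds fatty acid oxidation, had 20.4 and 20.02 RPKM with EtOH, 21.2 and 21.8 with E2, and 16.8 and 14.3 with 4-OHE1. Its log2 change was 0.27 in E2 (CI -0.02 to 0.56) and 0.072 in 4-OHE1 (CI -0.22 to 0.36), and the latter turned to -0.36 under the authors' scaling alone, where it passed (adjusted p = 0.0483). Slc25a44, a carrier of branched-chain amino acids singled out after its values were seen, had 6.48 and 7.31 RPKM with EtOH, 6.65 and 7.67 with E2, and 3.39 and 3.98 with 4-OHE1. Both 4-OHE1 libraries lay below the other 4. Its change against E2 was -0.60 (CI -1.03 to -0.17, adjusted p = 0.0779), with adjusted p = 0.0198 under the authors' scaling alone, 0.0377 without 4-OHE1 replicate 2 and 0.0419 in edgeR, whose reads were counted on another transcript of the gene. Slc25a38, a glycine carrier needed for heme synthesis, had -0.89 in 4-OHE1 against E2 (CI -1.62 to -0.17, adjusted p = 0.104) and -0.73 against EtOH (adjusted p = 0.124). With the authors' scaling alone both passed, at -1.06 (adjusted p = 0.0430) and -1.06 (0.0245). Slc25a38 rests on 22 and 34 reads in the 4-OHE1 libraries, against 77 and 53 in E2 and 197 and 351 in EtOH.

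Neither of the tested carriers related to the uncoupling proteins passed in limma. Slc25a30, the more abundant, stood at 8.20 and 7.33 RPKM with EtOH, 5.86 and 5.11 with E2, and 4.74 and 6.04 with 4-OHE1, with log2 changes of -0.27 (CI -0.71 to 0.17) and -0.065 (CI -0.50 to 0.37). Of the little characterised or outer membrane members, 0 of 4 passed in limma. Slc25a45, the most abundant, had 31.1 and 32.7 RPKM with EtOH, 30.3 and 29.1 with E2, and 28.0 and 27.0 with 4-OHE1. Its 4-OHE1 value was 0.24 higher relative to exon reads (CI 0.02 to 0.47) and had a log2 change of -0.20 under the authors' scaling, so no direction can be given. For both roles 0 members had an unadjusted p under 0.05 in both scalings in any comparison, and edgeR and DESeq2 called 0. The row of Slc25a43 is a noncoding transcript, at 0 in 4-OHE1 replicate 1 and 2.57 RPKM in replicate 2.

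The 14 members below 1 RPKM were not tested: Slc25a2, Slc25a18, Slc25a21, Slc25a27, Slc25a29, Slc25a31, Slc25a33, Slc25a34, Slc25a41, Slc25a42, Slc25a47, Slc25a48, Slc25a53 and Slc25a54. Their highest mean was 0.683 RPKM, and none had more than 67 reads in a library. Slc25a21 and Slc25a54 had 0 reads in all 6. Slc25a29, a carrier of basic amino acids, had 24 and 23 reads in EtOH, 2 and 11 in E2 and 0 in both 4-OHE1 libraries. Slc25a29 was singled out after its values were seen and was not tested. With 4-OHE1 set at a limit of 3 reads over the group, the observed EtOH rate per exon read was 2.98-fold higher. This value leaves out the counting error of the EtOH reads and the spread between libraries. Depth also limits the tested members: 13 of them had under 100 reads in a 4-OHE1 library and 14 in an E2 library, against 4 in EtOH.

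Ucp2 belongs to the same family under another symbol and is an inner membrane carrier known for its high level in macrophages. It stood at 1208 and 1229 RPKM with EtOH, 1680.4 and 1472 with E2, and 1906 and 1806 with 4-OHE1. These groups did not overlap, and Ucp2 alone exceeded the sum of all 47 numbered members in each library. It rose by 0.56 on the log2 scale in E2 (SE 0.0478, CI 0.45 to 0.68, adjusted p = 0.0312) and by 1.07 in 4-OHE1 (SE 0.0478, CI 0.95 to 1.18, adjusted p = 0.00115). The difference between 4-OHE1 and E2 was 0.50 (CI 0.39 to 0.62, adjusted p = 0.0553) and did not pass under both scalings. The call in E2 was lost without any filter on low values (0.1075), without EtOH replicate 1 (0.274) or 2 (0.240), and without E2 replicate 1 (0.0898) or 2 (0.0521). The difference between 4-OHE1 and E2 passed in 6 of 16 alternatives: relative to exon reads alone (0.00343), from a mean of 5 RPKM (0.0391), in edgeR with either normalization (0.000395 and 0.000374), in DESeq2 (2.67e-18) and without E2 replicate 1 (0.0410).

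Ucp2 divided by the sum of the members was 1.47 in both EtOH libraries, 2.17 and 2.06 in E2, and 3.65 and 3.52 in 4-OHE1. This ratio, which no scaling changes, was higher in each estrogen library than in EtOH and highest in 4-OHE1. Of the other relatives with their own symbols, Mtch1 and Mtch2, proteins of the outer mitochondrial membrane, did not pass in any comparison, and Ucp1 and Ucp3 were below 1 RPKM and not tested.

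**Figure D4:**
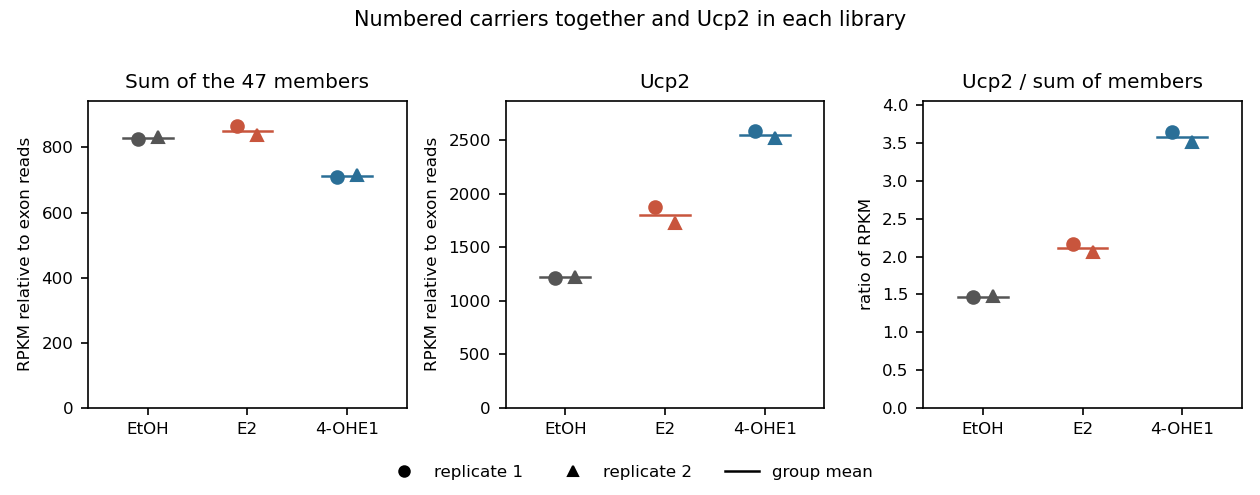
Sum of the 47 members, Ucp2 and their ratio in each library, as points by replicate and lines for group means; the first panels are in RPKM relative to exon reads and start at 0. Ucp2 lies above the sum in all 6 libraries, and the ratio runs from 1.47 in EtOH to 3.65 in a 4-OHE1 library.

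Other genes of mitochondrial transport were read from lists chosen for their function. The outer membrane list held the Vdac channels, the pores through which metabolites reach the carriers, and Tspo. In limma 3 of 4 fell in 4-OHE1 against EtOH (13.9% of all genes): Vdac1 from 72.5 ± 3.46 (SD, n = 2) to 37.2 ± 2.04 RPKM (log2 change -0.50, adjusted p = 0.0145), Vdac2 from 113 ± 2.37 to 50.2 ± 3.71 RPKM (-0.71, 0.00379) and Vdac3 from 39.4 ± 0.939 to 15.95 ± 2.15 RPKM (-0.82, 0.00417). Tspo did not pass (-0.43, adjusted p = 0.0547). At an unadjusted p under 0.05 in both scalings (21.1% of all genes), in edgeR (15.4%) and in DESeq2 (14.6%) 4 of 4 were lower. Vdac3 was also lower than in E2 (-0.51, adjusted p = 0.0389). These calls against EtOH were lost without EtOH replicate 1 for Vdac1 (0.105) and Vdac3 (0.0583), and without EtOH replicate 2 for Vdac1 (0.157), Vdac2 (0.0522) and Vdac3 (0.0661). That of Vdac3 against E2 was lost in 10 of the 16 alternatives, with adjusted p of 0.0526 in edgeR, 0.0568 in DESeq2 and 0.146 without either EtOH library, 0.141 without E2 replicate 1 and 0.123 without E2 replicate 2 among them. In E2, 0 of 4 passed in limma, with 3 lower at an unadjusted p under 0.05 in both scalings (8.52% of all genes), 1 in edgeR (3.62%) and 2 in DESeq2 (4.35%).

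Of 6 tested enzymes of the malate-aspartate and citrate shuttles, which work with the carriers above, 1 rose in E2 in limma (1.75% of all genes) and 3 fell in 4-OHE1 against EtOH (13.9% of all genes). In edgeR 1 was higher and 1 lower in E2 (5.37% and 3.62% of all genes), and 1 higher and 4 lower in 4-OHE1 against EtOH (15.8% and 15.4%). DESeq2 gave the same counts (6.77% and 4.35% of all genes in E2, 17.1% and 14.6% in 4-OHE1). Got1, the cytosolic aspartate aminotransferase, had 17.9 and 19.99 RPKM with EtOH, 51.2 and 41.5 with E2, and 23.8 and 19.6 with 4-OHE1. Under the authors' scaling both E2 libraries lay far above the other 4, which overlapped. It rose by 1.43 on the log2 scale in E2 (CI 1.10 to 1.77, adjusted p = 0.00817) and was lower in 4-OHE1 than in E2 (-0.81, CI -1.14 to -0.48, adjusted p = 0.0173). In 4-OHE1 against EtOH its log2 change of 0.63 (CI 0.29 to 0.96) did not pass in limma (adjusted p = 0.355) and passed in edgeR (0.00826). The first call was lost without EtOH replicate 1 (0.120) or 2 (0.0922) or E2 replicate 1 (0.0663) or 2 (0.0553), and the second with only the 2 groups in the fit (0.0537) and without EtOH replicate 1 (0.0595) or 2 (0.0599) or E2 replicate 1 (0.101) or 2 (0.0674). The malate dehydrogenases of the cytosol and of mitochondria, Mdh1 and Mdh2, fell in 4-OHE1 against EtOH by 0.65 (adjusted p = 0.00324) and 0.80 (adjusted p = 0.00286), and the mitochondrial aspartate aminotransferase Got2 by 0.50 (adjusted p = 0.0393). Mdh2 was lower than in E2 as well (-0.59, adjusted p = 0.0174). Without EtOH replicate 1 or 2 the calls of Mdh1 (0.0524 and 0.0627) and Got2 (0.233 and 0.261) against EtOH were lost, as was that of Mdh2 against E2 (0.0638 and 0.0642), while that of Mdh2 against EtOH passed in all 16 alternatives. Got2 was lost as well without any filter on low values (0.0606), with only the 2 groups (0.0648), without E2 replicate 1 (0.0653) or 2 (0.0658) or 4-OHE1 replicate 1 (0.0502), and Mdh2 against E2 with only the 2 groups (0.0614) and without E2 replicate 1 (0.0931) or 2 (0.103).

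Of 14 tested transporters of the inner membrane outside the family, 3 fell in 4-OHE1 against EtOH in limma and in edgeR and 2 in DESeq2 (13.9%, 15.4% and 14.6% of all genes). Those of limma were Sfxn1, a serine transporter (-0.83, adjusted p = 0.0167), Abcb8, an ABC transporter (-0.92, adjusted p = 0.0374), and Ccdc109b, a subunit of the calcium uniporter (-0.34, adjusted p = 0.0377). Ccdc109b was also lower than in E2 (-0.39, adjusted p = 0.0421), a call lost in 8 of 16 alternatives, with adjusted p between 0.0518 and 0.150 in these. Among them were each EtOH library left out (0.146 in both) and E2 replicate 1 (0.150) or 2 (0.100) left out. The folate enzyme Mthfd2, 1 of 4 tested in its list, fell by 1.09 (adjusted p = 0.0257), and Alas1, which starts heme synthesis and is 1 of 9 tested in its list, by 0.68 (adjusted p = 0.0118). Of all genes 13.9% fell there. Both edgeR (15.4% of all genes) and DESeq2 (14.6%) called 1 lower in each of these lists, and 1 higher in that of Alas1 (15.8% and 17.1%). Mthfd2 was low, at 7.84 and 7.61 RPKM with EtOH, 4.13 and 4.64 with E2, and 1.63 and 3.01 with 4-OHE1. All of these limma calls against EtOH were lost without EtOH replicate 1 or 2, with adjusted p of 0.162 and 0.164 for Sfxn1, 0.261 and 0.175 for Abcb8, 0.196 and 0.277 for Ccdc109b, 0.180 and 0.168 for Mthfd2, and 0.113 and 0.141 for Alas1. Over all 16 alternatives the call of Ccdc109b was lost in 9, DESeq2 (0.0609), either E2 library left out (0.0532 and 0.0528) and 4-OHE1 replicate 2 left out (0.0559) among them. That of Abcb8 was lost in 8, no filter on low values (0.0891), either E2 library left out (0.0643 and 0.0637) and 4-OHE1 replicate 1 left out (0.0636) among them, and that of Mthfd2 in 6, no filter (0.0689) and either E2 library left out (0.0621 and 0.0627) among them. Leaving out an EtOH library lowered the count over all genes from 2150 to 589 or 563 as well. Of 4 tested carnitine shuttle enzymes, 0 passed in limma in any comparison, and the counts at an unadjusted p under 0.05 in both scalings, in edgeR and in DESeq2 were 0 as well.

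The called members lie as follows in the authors' build mm9, each with the transcript counted. Slc25a3 (NM_133668) is on chromosome 10, 90579323 to 90586708, and Slc25a5 (NM_007451) on chromosome X, 34335592 to 34338803. Slc25a13 (NM_001177572) is on chromosome 6, 5991218 to 6167173, and Slc25a26 (NM_026255) on the same chromosome, 94450308 to 94554646. Slc25a24 (NM_172685) is on chromosome 3, 108926067 to 108971327. Values are over the exons of these transcripts.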

How the data were processed

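The deposited RPKM of 6 libraries are, per the file headers, reads over exons divided by exon length and library tags, with 1 isoform per gene. The submitters' processing notes name the build mm9 and the tools edgeR, DESeq2, HOMER and STAR, with no version. The authors' pairwise tables hold a signal per library, which are exon reads scaled by 1 factor per library: each of 119614 nonzero signal values came within 0.05 of a whole number of reads, so whole reads were recovered. The 266 genes whose transcript differed between both tables were left out of tests on reads, and 7 tested members, Slc25a44 among them, have another transcript there than in the RPKM table.

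Genes whose mean RPKM reached 1 were tested with limma 3.58.1 (R 4.3.3, limma-trend, all 6 libraries in 1 fit of group means, two-sided, Benjamini-Hochberg over 10950 genes, pseudocount 1). The second scaling multiplies RPKM by the mean EtOH exon share over the library's own. On reads of 10790 genes, edgeR 4.0.16 (quasi-likelihood) called 970, 3376 and 1764 genes for E2 against EtOH, 4-OHE1 against EtOH and 4-OHE1 against E2. DESeq2 1.42.0, other pseudocounts, filters and normalizations, a replicate block, fits of 2 groups and each library left out were further alternatives. The tests were also run on simulated reads with known changes, and the outcome is not given here.

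Members and lists were chosen with earlier results of these data known. Values per library are given for every called member, for the 6 members with the highest mean and for the most abundant of each role. From the lists of other mitochondrial genes the called ones (at most 4 each) and Ucp2 are named. Of these, Ucp2, Got1 and Mthfd2 have values per library, the Vdac genes group means, and the others log2 changes only. Tables were read with Python 3.11.15, pandas 2.3.3 and numpy 2.4.6.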

Additional observations from a re-analysis of the deposited data

How the results depend on the processing

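Over 16 alternatives, 895 of 1077 values of 68 named gene comparisons kept their direction and side of the threshold. Another 112 lost a call, 43 gained one and 27 turned sign. All 27 were among values that were not called, and 1 of them passed once turned (Slc25a20, below). Some alternatives use fewer genes or libraries, and the cause of a lost, gained or turned value was not tested in any. With the authors' scaling alone the signs turned for Slc25a3 (-0.14), Slc25a5 (-0.077), Slc25a12 (-0.10), Slc25a17 (-0.13), Slc25a39 (-0.16) and Slc25a45 (-0.098) in E2 against EtOH, for Slc25a20 (-0.36, adjusted p = 0.0483), Slc25a28 (-0.070) and Slc25a45 (-0.20) in 4-OHE1 against EtOH, and for Slc25a11 (-0.23), Slc25a28 (-0.17), Slc25a30 (-0.026), Slc25a37 (-0.11) and Slc25a45 (-0.11) in 4-OHE1 against E2. Slc25a4 in 4-OHE1 against E2 turned to 0.0076 in edgeR with DESeq2 size factors and 0.0085 in DESeq2.

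With 1 library left out at a time, signs turned within the ranges -0.24 to 0.025, -0.32 to 0.098 and -0.21 to 0.21 for Slc25a4 in E2 against EtOH, 4-OHE1 against EtOH and 4-OHE1 against E2. They also turned for Slc25a12 (-0.067 to 0.22) and Slc25a17 (-0.21 to 0.31) in E2 against EtOH, for Slc25a20 (-0.019 to 0.16) and Slc25a30 (-0.24 to 0.11) in 4-OHE1 against EtOH, and for Slc25a11 (-0.11 to 0.16) in 4-OHE1 against E2.

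Counts of members moved as follows. In E2 against EtOH, 1 was higher in edgeR with either normalization and in DESeq2, 0 were lower from a mean of 5 RPKM, and 0 to 1 were lower with a library left out. In 4-OHE1 against EtOH, 4 were higher relative to exon reads alone and 3 in edgeR with either normalization and in DESeq2, with 0 to 1 when a library was left out. There 17 were lower with the authors' scaling alone (51.5% of 33, beside 39.5% of all genes), 3 with no filter, from a mean of 5 RPKM or with only 2 groups, and 0 to 9 with a library left out. In 4-OHE1 against E2, 1 was higher in edgeR with either normalization and in DESeq2, with 0 to 1 when a library was left out, and 8 were lower with the authors' scaling alone (24.2%, beside 19.7% of all genes), 1 with a pseudocount of 0.1, no filter or only 2 groups, 4 in DESeq2 and 0 to 6 with a library left out.

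Counts over all genes were 430, 2150 and 1056 in the same order of comparisons. They were 789, 4957 and 2436 with the authors' scaling alone, 1029 and 338 with only 2 groups for the comparisons of E2 with EtOH and of the estrogens, 970, 3376 and 1764 in edgeR, 973, 3339 and 1771 with DESeq2 size factors, and 1199, 3421 and 2017 in DESeq2. With a library left out they ran from 46 to 1037, from 563 to 3181 and from 172 to 2241.

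Replicate numbers are shared by the groups, and the labels do not say whether equal numbers mark a shared batch. Deviations of equally numbered libraries from their group means correlated at -0.00967, -0.0202 and 0.0123 over 10950 genes. With 2 libraries a group these correlations cannot exclude a shared batch. The main fit did not use the numbers as pairs. With the replicate number as a block, 330, 1911 and 856 genes were called, and 0, 4 and 1 members were lower in the 3 comparisons, with 0 higher in each. Under this block Slc25a13 in E2 (adjusted p = 0.0547) and Slc25a3 against EtOH (0.0528) and against E2 (0.0606) were past the threshold no longer, nor were Vdac3 against E2 (0.0578), Ccdc109b against EtOH (0.0554) and against E2 (0.0639) and Abcb8 against EtOH (0.056).

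Depth limits the low members most: Slc25a13 and Slc25a26 rest on at most 39 reads in each E2 and 4-OHE1 library.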
